A study of Mus musculus with 10 samples.

Results

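The genes described here encode the pore-forming subunits of the AMPA receptors (Gria1, Gria2, Gria3 and Gria4) and of the kainate receptors (Grik1, Grik2, Grik3, Grik4 and Grik5). The members were chosen by gene symbol, though with earlier results of these data known. They comprise 9 of the 18539 genes that the array probes could be matched to. They were represented by 17 of 41174 probes, of which 9 report AMPA subunits and 8 report kainate subunits. Gria4 had 3 probes, Grik4 and Grik5 had 1 each, and the remaining genes had 2 each.

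The data comprise 10 dual dye oligonucleotide arrays on 4 slides, each carrying left hemibrain RNA of another animal, all male C57BL/6J mice. The mice arrived at 3 weeks of age, were singly housed, and were kept for 20 weeks on a fish oil diet rich in n-3 PUFA (FD) or on a standard diet (SD), to an age of 5 months. The sample labels give FD for all 10 hemibrains but describe the same samples as controls, so no comparison of the diets was made and the arrays were treated as 1 group of hemibrains of unsettled diet. The Cy-5 dye marked hemibrain RNA, and the RNA in Cy-3 is a pool of SD hemibrains according to the labels and a commercial reference RNA according to the methods. Each array is named by its animal, from C10-413 to C10-437, and each array is 1 animal. The spread between arrays thus includes differences between animals and between hybridizations, and any difference of diet.

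AMPA and kainate receptors are ion channels that open when glutamate binds, and both are built from 4 subunits. AMPA receptors carry most of the fast excitatory current at synapses of the brain, and the GluA2 subunit encoded by Gria2 makes them poorly permeable to calcium after its transcript is edited. Kainate receptors act on both sides of the synapse, where GluK1 to GluK3 can form channels alone, whereas GluK4 and GluK5 need a partner from among those.

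Promoter sequence was available for 6 of the 9 genes, as windows from 250 bases before to 50 bases after the annotated start in RefSeq (GRCm38.p6). The Gria2 and Grik3 windows are shown because these genes gave the highest ratio of the AMPA subunits and the lowest ratio of all members in the data below. They are written 5′ to 3′ on the strand of the gene. The Gria2 window lies on the minus strand at chr3:80802786-80803085 and the Grik3 window on the plus strand at chr4:125490446-125490745.
Gria2: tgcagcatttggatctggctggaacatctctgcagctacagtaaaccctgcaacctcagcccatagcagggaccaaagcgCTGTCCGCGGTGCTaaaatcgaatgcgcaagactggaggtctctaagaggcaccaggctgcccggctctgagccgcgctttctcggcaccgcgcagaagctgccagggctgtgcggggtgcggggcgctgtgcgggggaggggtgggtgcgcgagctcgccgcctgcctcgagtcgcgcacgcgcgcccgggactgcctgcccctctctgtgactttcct
Grik3: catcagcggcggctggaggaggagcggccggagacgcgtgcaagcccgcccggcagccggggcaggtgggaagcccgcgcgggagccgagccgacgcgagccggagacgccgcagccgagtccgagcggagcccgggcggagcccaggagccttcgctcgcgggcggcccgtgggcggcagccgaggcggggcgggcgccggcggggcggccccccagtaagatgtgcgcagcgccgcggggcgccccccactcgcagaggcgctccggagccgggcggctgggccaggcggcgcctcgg
The capitals mark bases 81 to 94 of the Gria2 window, which hold, on the opposite strand, AGCACC followed after 2 bases by GGACAG. These are the half-sites of the RE1 element, the sequence that the neuronal gene repressor REST is known to bind. The same letters were searched for on both strands of every window and were found in 17 of 32851 windows (0.0517%), and in none of the other 5 members' windows. A match of letters is a description of the sequence and was not tested for binding. The 6 windows were rich in G and C, from 59.7% in Gria4 to 82% in Grik3, against a median of 52.7% over all windows. Their CG dinucleotides numbered 10 in Grik5, 17 in Gria4, 26 in both Gria2 and Grik2, 42 in Grik4 and 50 in Grik3, against a median of 7.

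The labelled tissue was checked against marker genes before the subunits were read. All 6 neuron markers were higher in Cy-5 than in Cy-3, with mean log2 ratios from 3.31 for Tubb3 to 8.61 for Map2, and all 5 oligodendrocyte markers were higher as well. The 5 markers of dividing cells were all lower, with a median of -6.18. A pool of hemibrains in Cy-3 would hold the same neuronal transcripts as Cy-5, so these values go against that label, and ratios below are read as hemibrain over an RNA of unsettled source. In whole tissue, fewer cells of a type and less RNA per cell cannot be told apart. Astrocyte and microglia markers were higher for 4 of 5 genes each, and cerebellum markers for 5 of 7. The 2 cerebellum markers not called, Gabra6 and Cbln3, cleared background in Cy-5 on 1 array only, C10-413 for both. By contrast, 4 of the 7 cerebellum markers had Cy-5 well above background on all 10 arrays. The array of C10-434 was the dimmest in Cy-5, with 49.8% of probes well above background in that dye against 68.2% to 76.9% on the other 9 arrays, and means are given with and without it.

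Of the 17 probes, 15 were higher in hemibrain RNA than in the Cy-3 RNA and none was lower (limma, Benjamini-Hochberg adjusted p below 0.05 and a mean log2 ratio of at least 1). Over all 40963 probes tested, 22.6% were called higher and 20.2% lower. All 9 AMPA probes and 6 of 8 kainate probes were called, which covers 8 of the 9 genes and leaves out Grik3. The median mean log2 ratio was 4.72 over the member probes and 0.05 over all probes tested. The test leaves out the spread of the Cy-3 RNA, which was the same kind of RNA on every array. A probe was taken as well above background by the flag of the scanner software, and Cy-3 reached that flag on all 10 arrays for 5 member probes, on some arrays for 7, and on no array for the other 5.

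**Figure D1:**
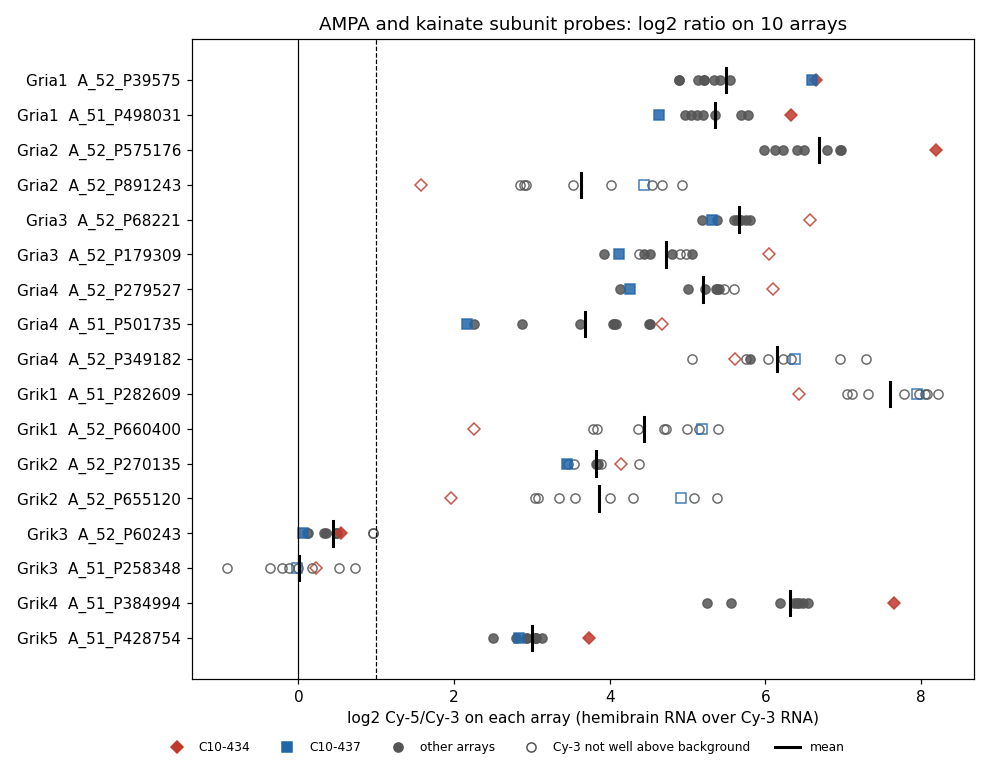
Log2 Cy-5/Cy-3 on each array (x axis) for each probe of the 9 genes (rows); every point is 1 array, black bars are means, open symbols mark arrays where Cy-3 was not well above background, and the dashed line is the log2 threshold of 1. The 2 Grik3 probes lie around 0 while the other 15 probes lie above 1 on every array. C10-434 (diamonds) is the highest array for 7 of 7 probes with Cy-3 above background on at least 9 arrays and the lowest for the 4 called probes with Cy-3 above background on none. Among the 7, Gria3 A_52_P68221 and Gria4 A_51_P501735 lack a Cy-3 signal well above background on C10-434 itself.

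Gria1 encodes GluA1, the subunit whose delivery to synapses is best known from long-term potentiation. Its brighter probe, A_52_P39575, had log2 ratios of 4.89 on the lowest array, 5.27 at the median and 6.65 on the highest. The values of C10-434 (6.65) and C10-437 (6.60) stood together above the other 8 arrays, which lay between 4.89 and 5.55. The mean was 5.49 ± 0.63 (SD, n = 10), a 44.9-fold difference (limma adjusted p = 2.3e-11), and it was 5.20 without C10-434 and C10-437. The other Gria1 probe, A_51_P498031, had 4.63, 5.20 and 6.33 as its lowest, median and highest ratio, with a mean of 5.35 ± 0.51 (SD, n = 9; 5.22 without C10-434) after the spot of C10-425 was left out by an outlier flag. On this probe C10-437 was the lowest array. The probes therefore differed by 1.96 on C10-437, whereas on the other 8 arrays with both values they differed by -0.27 to 0.32.

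Gria2 encodes GluA2. The ratio of its brighter probe, A_52_P575176, was 5.99 on the lowest array, 6.50 at the median and 8.19 on C10-434. Its mean of 6.68 ± 0.67 (SD, n = 9; 103-fold, limma adjusted p = 3.8e-11) was the highest of any member probe with Cy-3 well above background on all 10 arrays, and it was 6.49 without C10-434. The spot of C10-437 carried an outlier flag and was left out of the mean; the authors' deposited table gives 6.10 for it, inside the range of the other arrays. The dimmer probe, A_52_P891243, ranged from 1.57 on C10-434 through a median of 3.77 to 4.92, with a mean of 3.63 ± 1.07 (SD, n = 10). Cy-3 was not well above background for this probe on any array, and Cy-5 was well above it on 9 arrays but not on C10-434. The ratio thus has only a lower bound, at least 3.64-fold on the processed signals with C10-434 included. The mean was 3.86 without C10-434. Such bounds set the Cy-5 signal against the lowest Cy-3 signal well above background on each array. They are open to dye bias because no dyes were swapped, and they hold for the processed signals only. The fold of this probe was 1.67 when background was subtracted to a floor and an offset added to both dyes. It was 1.45 with normexp, a model-based background correction. How far the Gria2 probes differed in ratio was therefore not measured.

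Gria3 encodes GluA3. The ratio of A_52_P68221 was 5.19 on the lowest array, 5.65 at the median and 6.57 on C10-434, with the other 9 arrays between 5.19 and 5.81. On C10-434, Cy-3 was not well above background for this probe. Its mean was 5.66 ± 0.38 (SD, n = 10; 50.5-fold, limma adjusted p = 3.9e-13), and the SD was the smallest of the 9 AMPA probes. The dimmer probe, A_52_P179309, had ratios of 3.92, 4.66 and 6.05 at its lowest, median and highest, a mean of 4.72 ± 0.60 (SD, n = 10), and Cy-3 well above background on 6 arrays. On all 10 arrays it was below the brighter probe, though 4 of these arrays lack a Cy-3 signal well above background for it. Without C10-434 the means were 5.56 and 4.57.

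Gria4 encodes GluA4, which is found in interneurons and cerebellar cells among others. Its brightest probe, A_52_P279527, ranged from 4.13 through a median of 5.37 to 6.10, with a mean of 5.19 ± 0.60 (SD, n = 10; 36.6-fold, limma adjusted p = 2.2e-11). Cy-3 was well above background for it on 6 arrays, and not on C10-434, which had the highest ratio. The fold was 5.78 with normexp. A_51_P501735 gave lower ratios, 2.17, 4.05 and 4.67, with a mean of 3.68 ± 0.93 (SD, n = 10; limma adjusted p = 4.2e-08). Its low values came from C10-437 (2.17), C10-413 (2.25) and C10-424 (2.88), and the other 7 arrays lay between 3.62 and 4.67. A_52_P349182 gave the highest Gria4 ratios, 5.06, 6.13 and 7.30, with a mean of 6.14 ± 0.65 (SD, n = 10), and its Cy-3 signal was well above background on 1 array only. Its ratios on the other 9 arrays, the highest of them on C10-413 included, rest on a Cy-3 signal not well above background, so the distance between the Gria4 probes was not measured there. The direction was the same for all 3 probes on all 10 arrays. Without C10-434 the means were 5.09 for A_52_P279527, 3.57 for A_51_P501735 and 6.20 for A_52_P349182.

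Grik1 encodes GluK1, and its probes match different RefSeq transcripts. A_51_P282609 had the highest mean ratio of all members, 7.59 ± 0.59 (SD, n = 10; limma adjusted p = 7.7e-13), with 6.43 on C10-434, a median of 7.86 and 8.22 on the highest array. Its Cy-5 signal was well above background on all 10 arrays and its Cy-3 signal on none, so the difference was at least 49.6-fold on the processed signals. The fold was 10.0 with the floor and offset and 5.90 with normexp. A_52_P660400, for the other transcript, had a lowest ratio of 2.26 on C10-434, a median of 4.71 and a highest ratio of 5.39. Its mean was 4.44 ± 0.94 (SD, n = 10), its Cy-5 signal was well above background on 9 arrays and its Cy-3 signal on none, and the difference was at least 5.97-fold. Without C10-434 the means were 7.72 and 4.68.

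Grik2 encodes GluK2, a kainate subunit whose transcript, like those of Gria2 and Grik1, is edited in the pore loop. A_52_P270135 had the most even ratios of the probes that were called, 3.45 on the lowest array, 3.84 at the median and 4.37 on the highest. The mean was 3.82 ± 0.29 (SD, n = 10; limma adjusted p = 1.5e-12). Cy-3 was well above background on 2 arrays, and the fold moved with the background setting, from 14.1 to 2.83 when background was subtracted to a floor and an offset added to both dyes, and to 2.10 with normexp, a model-based background correction. A_52_P655120 had nearly the same mean, 3.86 ± 1.07 (SD, n = 10), but its arrays spread from 1.96 on C10-434 to 5.37 on C10-413. Its Cy-5 signal was well above background on 9 arrays, not on C10-434, and its Cy-3 signal on none. The difference was at least 4.52-fold on the processed signals with C10-434 included, against 1.91 with the floor and offset and 1.59 with normexp. Without C10-434 the means were 3.79 and 4.08.

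Grik3 encodes GluK3, and it was the only member without a called probe. A_52_P60243 had ratios of 0.05 on C10-437, 0.42 at the median and 0.96 on C10-415. The mean of 0.44 ± 0.32 (SD, n = 10; 1.36-fold) passed the adjusted p (limma, 1.5e-03), but not the log2 threshold of 1, and was 0.43 without C10-434. All 10 arrays were above 0 after loess, whereas in the authors' deposited table, without it, 3 arrays were below 0 and the mean was 0.20. Its Cy-5 signal cleared background on 5 arrays and its Cy-3 signal on 6. A_51_P258348 (0.00 ± 0.46, SD, n = 10; -0.02 without C10-434) was not well above background in either dye on any array, so it has no fold, and its ratios ran from -0.91 to 0.73. Low signal in both dyes limits what these probes can show, and a difference in Grik3 was not detectable with the dimmer of them.

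Grik4 and Grik5 encode GluK4 and GluK5, the high-affinity subunits that depend on a partner. The Grik4 probe, A_51_P384994, had ratios of 5.24 on C10-413, 6.41 at the median and 7.66 on C10-434, and a mean of 6.32 ± 0.68 (SD, n = 9; 79.8-fold, limma adjusted p = 6.7e-11) that became 6.15 without C10-434. The spot of C10-437 was left out by an outlier flag, and the authors' deposited table gives 5.30 for it, next to C10-413 at the low end. The Grik5 probe, A_51_P428754, had 2.51 on the lowest array, 2.98 at the median and 3.74 on C10-434, with a mean of 3.00 ± 0.32 (SD, n = 10; limma adjusted p = 2.2e-11), or 2.92 without C10-434. Its Cy-3 signal was bright on all 10 arrays, at a log2 normalised signal of 11.32 to 11.65, whereas its Cy-5 signal spread from 13.85 to 15.06.

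**Figure D2:**
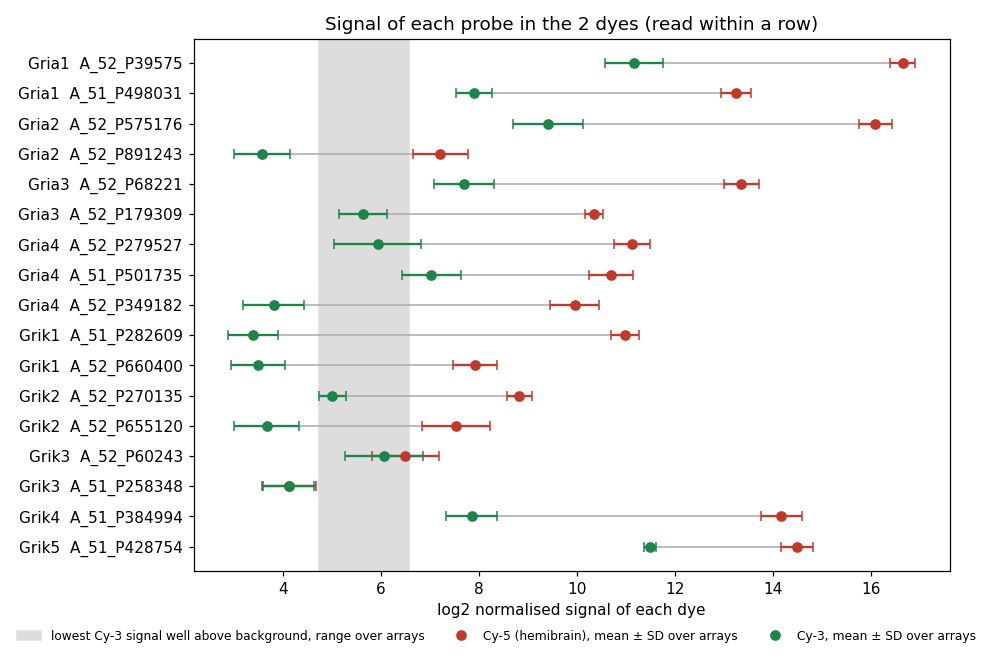
Log2 normalised signal (x axis) of Cy-5 (red) and Cy-3 (green) for each probe (rows), as mean ± SD over the arrays; the grey band spans the lowest Cy-3 signal well above background on each array, from 4.73 to 6.56. Mean Cy-3 lies left of the band for 5 called probes, of which 4 (Gria2 A_52_P891243, both Grik1 probes and Grik2 A_52_P655120) were above background in Cy-3 on no array and are given a lower bound, and Gria4 A_52_P349182 was above it on 1 array; levels are to be compared within a row, not between probes.

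In order of the mean log2 ratio of each gene's brightest probe, that of highest mean Cy-5 signal, the members ran Grik1, Gria2, Grik4, Gria3, Gria1, Gria4, Grik2, Grik5 and Grik3. This orders ratios and not transcript levels, since each ratio also depends on the Cy-3 RNA, and the place of Grik1 comes from a ratio whose Cy-3 signal was not measured above background. Every neighbouring pair from Grik1 to Grik5 overlapped in its range over the arrays. Only Grik5 (2.51 to 3.74) and Grik3 (0.05 to 0.96) did not overlap.

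The ratios of the dim probes depended on how background was removed. With local background subtracted, values below 0.5 set to 0.5 and 50 added to both dyes before the ratio, 12 of the 17 probes were called higher, and 15.1% of all probes. The probes no longer past the log2 threshold were Gria2 A_52_P891243 (0.74), Grik1 A_52_P660400 (1.00, just under it) and Grik2 A_52_P655120 (0.94). The mean of Grik1 A_51_P282609 fell to 3.32 and that of Gria4 A_52_P349182 to 2.59, while Gria1 A_52_P39575 (5.47) and Grik5 (2.91) hardly moved. The fold also moved by over 1.5 times for Gria1 A_51_P498031 (40.7 to 22.5), Gria3 A_52_P68221 (50.5 to 23.5) and A_52_P179309 (26.3 to 5.96), Gria4 A_52_P279527 (36.6 to 9.44) and A_51_P501735 (12.8 to 6.01), Grik2 A_52_P270135 (14.1 to 2.83), and Grik4 (79.8 to 44.4). The order of the genes was then Gria2, Grik4 and Gria1 (both 5.47), Gria3, Grik1, Gria4, Grik5, Grik2 and Grik3, so the first place of Grik1 rests on a Cy-3 signal that was not measured above background.

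The array of C10-434 stood at an end of the range for most of the probes called higher. The 7 probes with Cy-3 well above background on 9 or 10 arrays were all highest there, and the 4 called probes with no such array were all lowest there. For Gria3 A_52_P68221 and Gria4 A_51_P501735, both among the 7, Cy-3 was not well above background on C10-434 itself. Of the 5 probes in between, which include Grik3 A_52_P60243 that was not called, 2 were highest on C10-434. These were Gria3 A_52_P179309 and Gria4 A_52_P279527, both without a Cy-3 signal well above background there. Neuron markers moved likewise, with a median log2 ratio over the 6 genes of 8.31 on C10-434 and 6.00 to 7.44 on the other arrays, while the log2 of their summed Cy-5 signal was 18.5 on C10-434 and 17.6 to 18.5 on the rest. C10-434 also had the fewest probes well above background in Cy-3, 61.9% against 70.3% to 79.1% on the other arrays. Of the 7 probes, all but Gria1 A_52_P39575 had their lowest Cy-3 signal on C10-434. The part of marker level and of dim signal in either dye in these values was not tested. Leaving C10-434 out changed the call of no member probe.

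The slides, numbered here in the order of the animals, held 4 arrays each in the case of slides 2 and 3, which allowed a comparison of hybridization slides. Slide and animal cannot be told apart there, nor can any difference of diet, since the diet of the arrays is unsettled. None of the 16 member probes tested differed between them (limma, Benjamini-Hochberg adjusted p below 0.05), against 0.0744% of 40299 probes in all, and 4 of the 16 had an unadjusted p below 0.05, against 3998 of the 40299. Gria1 A_51_P498031 was not tested, because a value was missing on slide 3. The ranges of the slides did not overlap for 3 of the 16 probes, and for 7.19% of all probes.

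Those 3 probes were both Grik1 probes and the dim Grik3 probe. Grik1 A_51_P282609 lay between 7.98 and 8.22 on slide 2 and between 6.43 and 7.32 on slide 3, a difference of -1.10 ± 0.20 (SE; limma adjusted p = 0.0941). Grik1 A_52_P660400 lay between 4.70 and 5.15 on slide 2 and between 2.26 and 4.36 on slide 3, a difference of -1.33 ± 0.41 (SE; limma adjusted p = 0.279). Neither passed the adjusted p. Without C10-434 the differences were -0.92 and -0.89, and the lowest values on slide 3 were 7.04 and 3.78. The Cy-5 signal of A_51_P282609 was itself lower on slide 3, 10.48 to 10.98 against 11.04 to 11.45 in log2, and the Cy-3 signal, not well above background on any array, was higher, 3.44 to 4.54 against 2.95 to 3.37. With the floor and offset the difference of A_51_P282609 was -0.18 and with normexp background correction 0.09, and for A_52_P660400 these were 0.01 and 0.02. The sizes held under neither setting, and the direction turned for A_52_P660400 under both and for A_51_P282609 under normexp, which fits the background as a normal and the signal as an exponential distribution. Grik3 A_51_P258348 differed by 0.63 ± 0.21 (SE; limma adjusted p = 0.312) with no signal well above background in either dye. Neuron markers overlapped between the slides, with list medians of 6.28 to 7.44 on slide 2 and 6.77 to 8.31 on slide 3. Medians were compared for 8 marker lists and 6 lists of genes that work with the receptors. Only those of the glutamate release and uptake genes did not overlap, 5.49 to 5.77 on slide 2 and 5.00 to 5.29 on slide 3. The log2 of their summed Cy-5 signal did overlap, 18.30 to 18.43 on slide 2 and 18.21 to 18.43 on slide 3. The part of these genes in the Grik1 values was not tested.

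**Figure D3:**
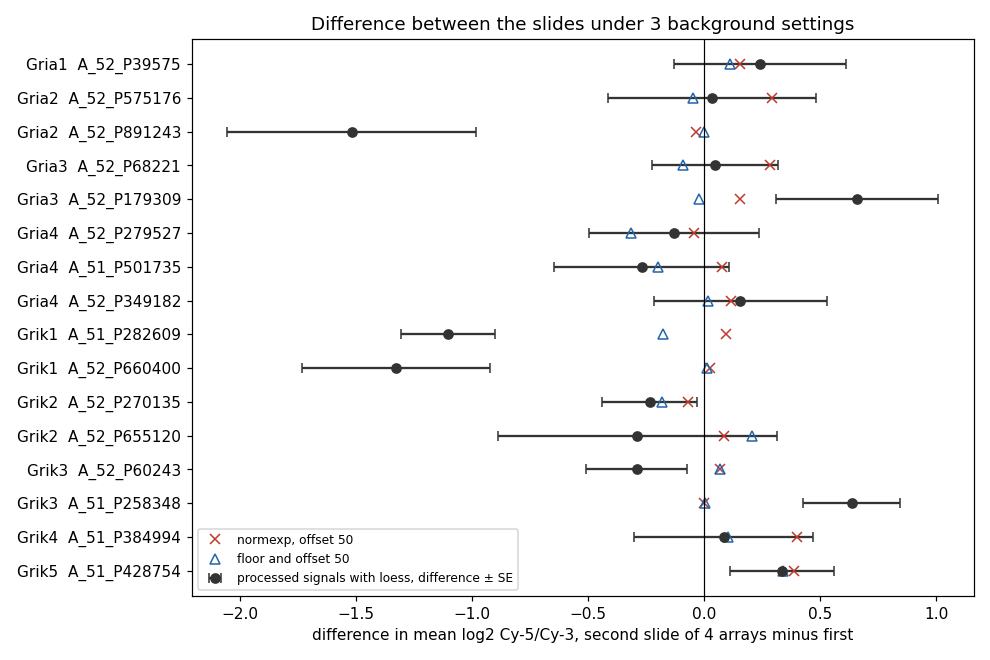
Difference in mean log2 Cy-5/Cy-3 between slide 3 and slide 2 (x axis, second minus first, 4 arrays each) for the 16 member probes tested (rows); black points are the difference ± SE from the processed signals, crosses use normexp and triangles a floor, both with an offset of 50. The differences of -1.10 and -1.33 of the Grik1 probes and -1.52 of Gria2 A_52_P891243 lie near 0 under both other settings.

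The other 13 probes had overlapping slides, with differences from -1.52 for Gria2 A_52_P891243 (limma adjusted p = 0.356) to 0.66 for Gria3 A_52_P179309 (limma adjusted p = 0.632). Gria2 A_52_P575176 differed by 0.03 ± 0.45 (SE) and Grik4 by 0.08 ± 0.39 (SE). With 4 arrays a slide these errors leave room for differences of some size, so the values do not show that the slides were alike.

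Genes that work with the receptors were counted in 6 lists, taking the brightest probe of each gene, and 36 of 39 genes were matched to a probe. The brightest probe was that of highest mean Cy-5 signal, the numerator of the ratio, and other probes of these genes are not given here. Of the 36 genes, 35 were higher in hemibrain RNA, and Grip2 was neither higher nor lower. Over all probes tested, 22.6% were called higher. The median mean log2 ratio of the brightest probe was 0.14 over all genes. All 11 AMPA receptor auxiliary subunits matched were higher, with a median of the mean log2 ratios of 4.18. They ran from 1.54 ± 0.30 (SD, n = 10) for Cacng7, a transmembrane AMPA receptor regulatory protein, to 6.79 ± 0.89 (SD, n = 10) for Frrs1l, which acts in AMPA receptor assembly. Both kainate receptor auxiliary subunits were higher, Neto1 by 6.16 ± 0.36 (SD, n = 10) and Neto2 by 3.97 ± 0.43 (SD, n = 10). Grid1, a delta receptor and thus a glutamate receptor relative that binds cerebellins, was higher by 1.75 ± 0.67 (SD, n = 10).

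Binding and trafficking partners were higher for 11 of 12 genes, with a median of 2.90. C1ql3, a secreted synaptic protein of the C1q family, was highest at 6.78 ± 0.63 (SD, n = 10). Grip2, a scaffold that binds the tails of GluA2 and GluA3, had ratios of -0.46 to 0.62 and a mean of 0.18 ± 0.33 (SD, n = 10; limma adjusted p = 0.136), whereas its relative Grip1 had 4.44 ± 0.54 (SD, n = 10). The RNA editing enzymes were all higher. Adar had the lowest mean, 2.04 ± 0.30 (SD, n = 10), and Adarb2 the highest, 4.54 ± 1.44 (SD, n = 10). For Adarb2, Cy-5 was well above background on 9 arrays and Cy-3 on none, so its difference was at least 6.22-fold on the processed signals. Adarb1, the enzyme known to edit the Gria2 and Grik2 transcripts, had 3.17 ± 0.07 (SD, n = 10).

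All 7 genes of glutamate release and uptake that are reported here were higher. Slc1a2, the main glial glutamate transporter, had the highest mean, 10.29 ± 0.88 (SD, n = 10), and Slc17a8, a vesicular glutamate transporter, the lowest, 1.49 ± 0.39 (SD, n = 10).

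**Figure D4:**
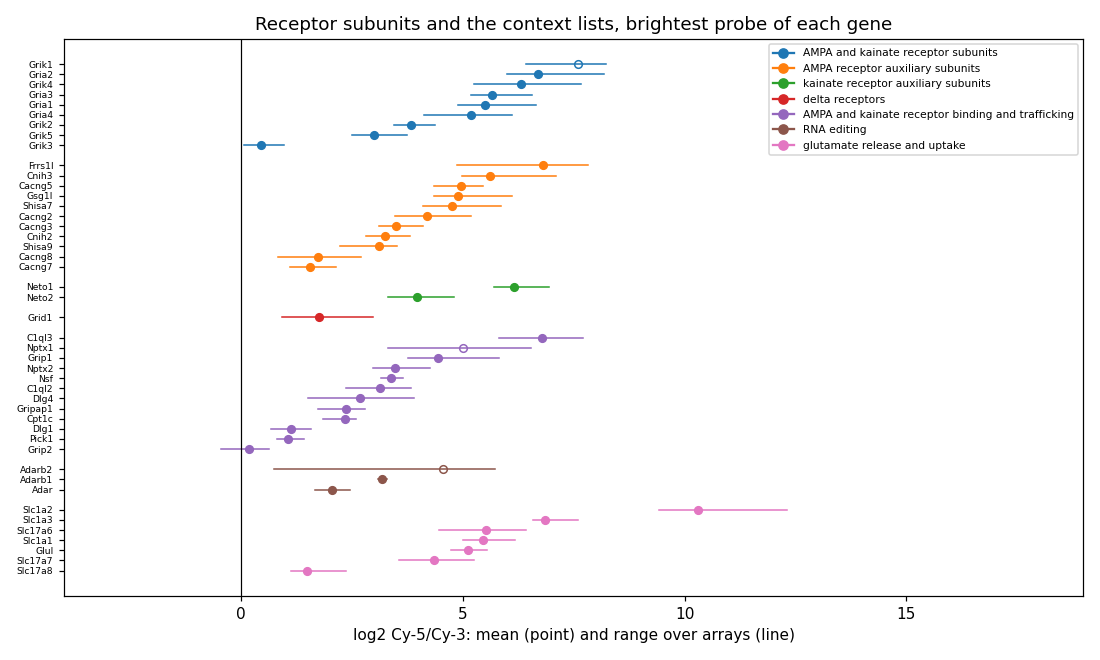
Mean log2 Cy-5/Cy-3 (points; open where Cy-3 was well above background on no array) and range over the arrays (lines) of the brightest probe of each receptor subunit and of each reported gene in the 6 lists, on the x axis, grouped by list and ordered by mean. Grik3 (0.44) and Grip2 (0.18) lie near 0 and Slc1a2 (10.29) has the highest mean.

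For each member, the gene whose ratios lay closest over the arrays was sought among 12910 other genes with both dyes well above background on at least 8 arrays. Gria3 lay closest to St8sia3, a sialyltransferase, with a mean absolute difference of 0.10 in log2 ratio over 10 arrays. Grik5 lay closest to Tmem198 (0.13, 10 arrays), Grik2 to Slc38a3, a glutamine transporter (0.16, 10 arrays), and Grik3 to Spata18 (0.17, 10 arrays). Gria2 lay closest to Srrm3, a neuronal splicing factor (0.18, 9 arrays), Gria4 to Myo5b (0.18, 10 arrays) and Grik4 to Ntm, an adhesion protein of neurons (0.19, 9 arrays). Gria1 lay closest to the myelin gene Mbp (0.27, 10 arrays), and Grik1 to Tro (0.41, 10 arrays). For Grik1 this distance rests on a Cy-3 signal not well above background on any array. The distances of Grik2, Gria4 and Grik3 rest in part on such signals, with Cy-3 well above background on 2, 6 and 6 arrays. For Grik3, Cy-5 was so on 5 arrays. Closeness here means a similar level of ratio on the same arrays, which share their depth and their Cy-3 RNA.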

How the data were processed

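RNA of 10 hemibrains (Cy-5) and 1 other RNA (Cy-3) were measured on 10 arrays. The authors scanned the arrays and deposited the output of Feature Extraction (version 10.10.1.1 per the file headers), in which signals are intensities on a linear scale after background subtraction and dye normalization, and the log ratio is on the log10 scale, Cy-5 over Cy-3. The authors also deposited a table of log2 ratios. The deposited background and outlier flags are scores of 0 or 1 per spot. The members and gene lists were chosen with earlier results of these data known.

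The log2 ratio was taken from the processed signals and fitted by loess in each array (span 0.3), leaving out control spots and outlier-flagged spots and averaging the spots of a probe. Dye levels were put on 1 scale by Aquantile. Of 41174 probes, 27198 (66.1%) were named through RefSeq transcripts (GRCm38.p6). Probes with values on at least 8 arrays were tested with limma 3.58.1 (R 4.3.3) against 0, and slides of 4 arrays with each other. All member probes are named, and of the context lists the highest and lowest gene and any gene not called higher (2 genes of these lists are not reported here); Grip1 and Adarb1, and the 2 cerebellum markers, were named in addition, after their values were seen. On simulated data of 40060 probes with 200 shifted by 1.5, 93.5% were recovered against 0 and 48% between slides. Of the unshifted probes, 0 were called against 0 and 8 between slides. The simulated noise was independent between arrays and held no dim-signal or slide effects, so these rates do not describe the dim probes. The number of arrays limits the precision. Alternatives covered background correction, centring, the deposited table, dim probes, slide as a random block, left-out arrays, all probes of a gene and the fold threshold.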

Additional observations from a re-analysis of the deposited data

Results flagged for a closer look

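Each member probe's log2 Cy-5/Cy-3 and Cy-5 level over the arrays, and the difference between probes of the same gene, were examined for 1 array that stood far from the rest (Dixon's test at the 95% level). Of 43 such measures, 7 were flagged, and chance flags about 1 in 20 groups. C10-434 lay above the other arrays for Gria2 A_52_P575176 (8.19, others 5.99 to 6.97), Gria3 A_52_P68221 (6.57, others 5.19 to 5.81), Gria3 A_52_P179309 (6.05, others 3.92 to 5.05) and Grik5 A_51_P428754 (3.74, others 2.51 to 3.13). Both Gria3 probes lacked a Cy-3 signal well above background on C10-434. That array lay below the others for Grik1 A_52_P660400 (2.26, others 3.78 to 5.39), without a signal well above background in either dye there. The difference between the Gria2 probes was also largest on C10-434 (6.62, others 1.30 to 3.95), where the dimmer of them was well above background in neither dye, and its Cy-3 signal was so on no array, so this value has no measured size. The difference between the Gria1 probes, A_52_P39575 minus A_51_P498031, was 1.96 on C10-437 and -0.27 to 0.32 on the others. The flags on C10-434 are not independent of each other, since they share 1 array, and their cause was not tested.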

How the results depend on the processing

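The count of member probes called higher, 15 of 17, was 12 with normexp or with the floor and offset, 14 of 16 without both C10-434 and C10-437, 16 by adjusted p alone, and 15 under no further loess, median centring, the deposited table, slide as a random block, or without C10-434 or C10-437. Among probes well above background in both dyes it was 7 of 7 tested, since fewer probes could be tested. The 3 calls lost with normexp had means of 0.54 (Gria2 A_52_P891243), 0.66 (Grik1 A_52_P660400) and 0.67 (Grik2 A_52_P655120). Over all probes, 9267 were higher and 8287 lower; with normexp these were 5117 and 3897, with the floor 6195 and 5000, and among probes above background 6313 and 5367. With all probes of a gene averaged, the mean moved by more than 1 SD for Gria2 (5.05), Gria3 (5.19) and Grik1 (6.02).

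Between the slides, the count of member probes called was 0 under each alternative except among probes well above background in Cy-5, where it was 1 of 11 (Grik1 A_51_P282609, limma adjusted p = 0.0400, against 0.0888 to 0.245 with each array left out and up to 1.00 with normexp). Over all probes the count of 30 became 0 with normexp, 1 with the floor, 92 among probes above background, and 0 to 8 with each array left out. No paired analysis was possible because the arrays form 1 group. Cy-3 signal not well above background limits the size of the ratio for 12 of the 17 probes, on some or all arrays.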
